A study of Mus musculus with 4 samples.

Results

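The genes described here are the chaperones, co-chaperones and prolyl isomerases of mouse cells, taken by a pattern of gene names: the HSP70, HSP110, HSP60, HSP10, small heat shock and HSP90 genes, the Dnaj genes, the TRiC subunits (Tcp1 and the Cct genes), the Fkbp and Ppi prolyl isomerases, the Bag genes and Stip1. Hspa5 and Hsp90b1, the main chaperones of the endoplasmic reticulum, were left out. The pattern found 109 probe sets for 79 genes, of 8251 genes with a probe set of their own on the array, and each gene was read from its probe set with the highest mean signal over the 4 arrays. Of the 79 genes, 65 are chaperones or their partners of the cytosol, nucleus or mitochondria, 11 act in the endoplasmic reticulum, and 3 (Tcp10b, Tcp11 and the pseudogene Tcp1-ps1) share the name pattern and are not chaperones.

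The study compared cells of extraembryonic endoderm (XEN), the lineage from which the endoderm of the yolk sac forms, with mouse embryonic stem (ES) cells. There were 3 XEN cultures and 1 ES culture, each on 1 Affymetrix MG_U74Av2 array. IM8A1-I and IM8A1-II were cultures of the IM8A1 line (PO strain) at passage 27, IM8A1-I on gelatin in 70% EMFI-CM and IM8A1-II on tissue culture plastic for 4 days, with RPMI 1640 and 20% FBS as medium. XEN1-3 was another line (ICR strain) at passage 18, on gelatin in 70% EMFI-CM like IM8A1-I, and the ES culture was R1 cells, undifferentiated, on gelatin with LIF. No genetic change or drug treatment is given in the labels for any culture. Medium, strain and cell type differ together between the XEN cultures and the ES culture.

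The cultures carried the markers of their labels. All 10 XEN markers (such as Gata6 and Sox17) rose, and their summed signal was 26267 to 34991 units in XEN, against 847 units in ES. Of 10 ES markers (such as Pou5f1 and Nanog) 9 fell, with sums of 1389 to 2243 units in XEN and 22724 units in ES, and Klf4 was the exception. Fibroblast markers summed to 705 to 769 units in XEN and 1047 in ES, and trophoblast markers to 84.1 to 129 in XEN and 928 in ES, where Tfap2c made up most of the ES sum. Cdx2 and Elf5 were under the background limit of 27.2 units on all arrays. The part of these other cell types in the results was not tested. In cultures read as a whole, fewer cells of a type and less RNA per cell cannot be told apart. The XEN arrays came from a different chip lot and day than the ES array, so the effect of lot cannot be told apart from that of cell type. The run record of XEN1-3 carries a message that fluid was not detected.

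Chaperones help proteins fold and keep them from aggregating. HSP70 binds short exposed stretches of a client, J-domain proteins (Dnaj) bring the clients and trigger ATP hydrolysis, and nucleotide exchange factors (HSP110, Bag and Hspbp1) release them. Clients can then pass to HSP90, which matures kinases and hormone receptors with its co-chaperones, or to TRiC, a ring that folds actin and tubulin, while HSP60 and HSP10 form the ring of the mitochondrial matrix. Under stress, heat shock factor binds heat shock elements, inverted repeats of GAA and TTC, and the endoplasmic reticulum has its own set of chaperones, induced through ER stress elements.

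A pair of promoters is shown as examples of these elements. The ER stress element was found in the promoters of 1 of the 5 endoplasmic reticulum members that rose. Whether the element goes with the change was not tested. Both promoters are RefSeq sequences of build GRCm38.p6, plus strand, written 5′ to 3′. The first is the 150 bases before the start of Dnajc3 (chr14:118937782-118937931), a gene that rose in XEN, and the capitals mark the ER stress element (CCAAT, any 9 bases, CCACG). The second is the 215 bases between the starts of Hspd1 and Hspe1 (chr1:55087933-55088147), neighbours transcribed away from each other that did not pass the test, and the capitals mark a run of alternating TTC and GAA units.
Dnajc3: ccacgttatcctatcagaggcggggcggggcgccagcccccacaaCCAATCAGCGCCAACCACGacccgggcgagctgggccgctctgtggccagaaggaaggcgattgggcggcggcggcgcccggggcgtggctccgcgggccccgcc
Hspd1-Hspe1: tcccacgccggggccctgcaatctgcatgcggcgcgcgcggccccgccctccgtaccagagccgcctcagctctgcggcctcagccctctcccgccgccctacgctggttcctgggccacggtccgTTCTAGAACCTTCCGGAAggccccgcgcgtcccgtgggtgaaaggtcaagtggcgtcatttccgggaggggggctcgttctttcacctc

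The 79 genes did not all differ between XEN and ES in 1 direction. Members of the endoplasmic reticulum were higher in XEN, with a median log2 change of 1.46, and the 65 cytosolic, nuclear and mitochondrial members were mostly lower, with a median of -0.33, beside 0.05 over all probe sets of the array. A log2 change is the mean of log2(signal + offset), the offset being the 25th percentile of all signals, over the XEN arrays minus that of ES. In limma's moderated test 7 of the 73 members that could be tested rose and 4 fell at an adjusted p under 0.05, or 9.59% and 5.48%, against 5.58% and 5.04% of all 8584 tested probe sets. The other 62 did not pass, and 6 members under the background limit on all arrays were not tested (Hspa1l, Hspb1, Dnajb3, Dnajb4, Dnajb5 and Dnajb8). All 3 XEN arrays lay below ES for 36 members (49.3%, against 34.0% of all tested probe sets) and above it for 25 (34.2%, against 38.9%).

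**Figure D1:**
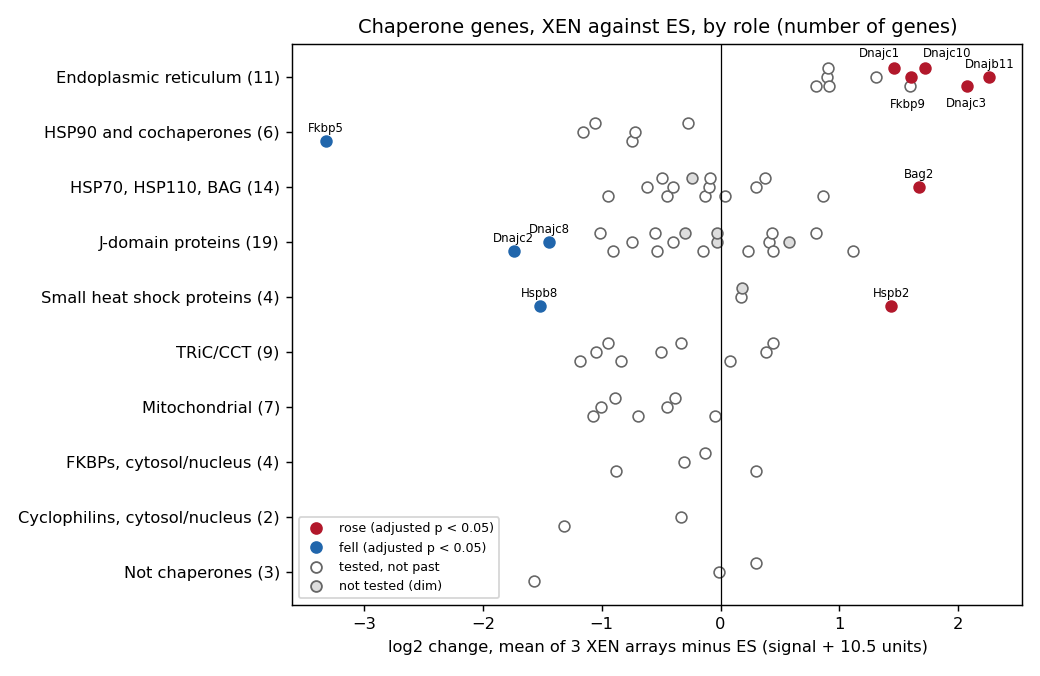
Log2 change of each of the 79 genes (1 point each; mean of 3 XEN arrays minus the ES array, signal plus the offset), in rows by role with the number of genes. Red points rose and blue points fell at a limma adjusted p under 0.05, white points were tested and did not pass, and grey points were too dim to test; all 11 members of the endoplasmic reticulum lie right of 0.

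The smallest change called was 1.44 in log2 among the members and 1.11 among all tested probe sets, and the members that did not pass had a median absolute change of 0.52. With a single ES array, whose spread is assumed to equal that of the XEN arrays, a miss does not show that a level was the same.

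The members of the endoplasmic reticulum fold and modify secreted and membrane proteins. In this list of 11 genes, 5 rose (45.5%, against 5.58% of all tested probe sets), none fell (against 5.04%) and 6 missed the threshold. All 11 were higher in each XEN array than in ES, as were 38.9% of all tested probe sets. The direction of all 11 was the same after median scaling and quantile normalization. With median scaling, however, 3 of the 5 calls remained, since Dnajc10 (adjusted p = 0.0573) and Fkbp9 (0.0569) missed the threshold. Of 13 alternative settings, Dnajb11 and Dnajc3 passed in all, Dnajc1 in 9, Dnajc10 in 8 and Fkbp9 in 7. The 2 genes that the name rule leaves out stood on the same side: Hspa5 (BiP), the HSP70 of this compartment, averaged 3949 ± 478 units in XEN (SD, n = 3) and 1040 in ES, a rise of 1.91 ± 0.26 in log2 (SE, adjusted p = 0.0138), and Hsp90b1, its HSP90, averaged 3841 ± 61.0 and 1950 (log2 change 0.97, adjusted p = 0.0541).

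Dnajb11 (ERdj3), a J-domain partner of BiP that binds unfolded clients, had a signal of 693 in IM8A1-I, 683 in IM8A1-II and 492 units in XEN1-3, against 120.0 units in ES. Every XEN array stood well above ES, 5.13-fold by the geometric mean, with a log2 change of 2.26 ± 0.31 (SE, limma adjusted p = 0.0144). Dnajc3 (p58IPK), a J-domain protein that also restrains the kinase PERK, read 289, 231 and 283 units in the XEN arrays in the same order and 55.3 in ES. The 3 XEN cultures were close together and 4.82-fold above ES (log2 change 2.07 ± 0.28, adjusted p = 0.0136). Another Dnajc3 probe set rose by 2.27 (adjusted p = 0.0144), a further one differed by 1.44 without passing (adjusted p = 0.0929), and the last was dim on all arrays. The Dnajc3 probe sets that passed have names ending in _i_at and _r_at, while the one at 1.44 ends in a plain _at.

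Dnajc10 (ERdj5), which reduces disulfides of proteins bound for degradation, read 1131, 702 and 1164 units in XEN and 288 in ES. IM8A1-II was the lowest XEN culture, still above ES, and the log2 change was 1.72 ± 0.37 (adjusted p = 0.0429). Fkbp9, a prolyl isomerase of the lumen, read 1477, 1162 and 1926 units in XEN, against 483 in ES. No XEN array came near ES, with a log2 change of 1.61 ± 0.35 (adjusted p = 0.0429). Dnajc1 (ERdj1), a membrane J-domain protein that docks on ribosomes, read 154, 148 and 175 units in XEN and 50.9 in ES. Its XEN values were tightly grouped, and it rose by 1.46 ± 0.27 (adjusted p = 0.0302). Its second probe set was dim throughout, and with the mean over both the log2 change was 0.55 (limma adjusted p = 0.229).

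The 6 members of this compartment that did not pass had log2 changes of 0.80 to 1.60. Ppic, cyclophilin C, read 649, 693 and 261 units in XEN and 155 in ES, so that XEN1-3 lay between the IM8A1 cultures and ES (log2 change 1.60 ± 0.58, adjusted p = 0.136). Dnajb9 (ERdj4), a BiP partner that represses the stress sensor IRE1, was highest in IM8A1-II, at 122, 207 and 91.0 units in the XEN arrays and 47.2 in ES (adjusted p = 0.127). A second Dnajb9 probe set had a log2 change of 1.64 and did not pass either (limma adjusted p = 0.0595). Ppib, cyclophilin B, part of the collagen prolyl 3-hydroxylation complex, averaged 1084 ± 189 units in XEN and 572 in ES (log2 change 0.90, adjusted p = 0.110). Fkbp2 and Fkbp11, both prolyl isomerases, averaged 419 ± 93.0 and 263 ± 69.0 units in XEN, against 233 and 132 in ES. Fkbp7, under the limit in ES at 25.6 units, read 43.4, 29.1 and 133 in XEN, at least 2.03-fold higher by their geometric mean, and XEN1-3 carried most of that difference.

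Among HSP90 and its co-chaperones 1 of 6 members fell (16.7%, against 5.04% of all tested probe sets). None rose (against 5.58%) and 5 did not pass. Fkbp5 (FKBP51), a TPR-domain isomerase that holds the glucocorticoid receptor in a low-affinity state and is itself a target of that receptor, read 44.9, 41.4 and 33.5 units in XEN, against 492 in ES. The XEN values lay just above the background limit and far below ES, 12.4-fold by the geometric mean, a log2 change of -3.32 ± 0.29 (adjusted p = 0.00520), and no other member changed as much. Its close relative Fkbp4 (FKBP52), which favours the active receptor, read 1628, 1535 and 2450 units in XEN and 3022 in ES. These XEN values were all lower than ES but spread widely, and the log2 difference of -0.72 ± 0.34 did not pass (adjusted p = 0.225). A second Fkbp4 probe set differed less, with a log2 change of -0.22 (limma adjusted p = 0.616).

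Hsp90aa1, the inducible cytosolic HSP90, read 3860, 4659 and 3381 units in XEN, against 8788 in ES. No XEN array came near the ES level, yet the log2 difference of -1.16 ± 0.28 missed the threshold narrowly (adjusted p = 0.0541). It passed in 3 of 13 alternative settings, with the lowest adjusted p of 0.0427 under median scaling, and in the others the adjusted p reached 0.284 with the mean over probe sets (log2 change -0.71), 0.139 with quantile normalization (-0.87) and 0.137 without IM8A1-I. The other Hsp90aa1 probe set, which enters the mean over probe sets, was under the background limit on all arrays (log2 change -0.25). Stip1 (HOP), which hands clients from HSP70 to HSP90, read 393, 743 and 593 units in XEN and 943 in ES (adjusted p = 0.268). Ppid (cyclophilin 40) read 304, 208 and 632 units in XEN and 725 in ES, where XEN1-3 approached ES and the IM8A1 cultures did not (adjusted p = 0.292). Without XEN1-3 the log2 change of Ppid was -1.49, which describes the IM8A1 line alone. Fkbpl was dim and missed the threshold (log2 change -0.27). The constitutive Hsp90ab1 had no probe set of its own here and is not reported.

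**Figure D2:**
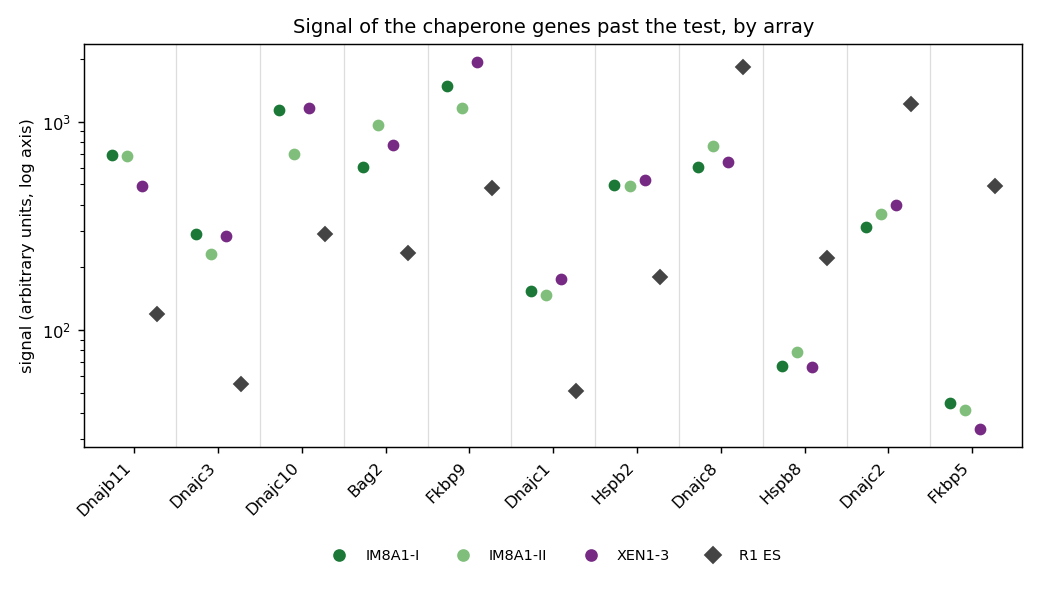
Signal (arbitrary units, log axis) of the 11 genes past the test on each array, from the largest rise at the left to the largest fall at the right; circles are the 3 XEN cultures and diamonds the ES culture. For each gene the 3 XEN circles lie on the same side of the ES diamond, from Dnajb11 at 492 to 693 in XEN and 120.0 in ES, to Fkbp5 at 33.5 to 44.9 in XEN and 492 in ES.

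In the HSP70, HSP110 and BAG list 1 of 13 tested members rose (7.69%, near the 5.58% of all tested probe sets). None fell (against 5.04%) and 12 did not pass. The member that rose was Bag2, an exchange factor that inhibits the chaperone-linked ubiquitin ligase CHIP (Stub1), at 607, 965 and 770 units in XEN and 234 in ES. IM8A1-II was highest and no XEN array overlapped ES (log2 change 1.67 ± 0.34, adjusted p = 0.0356). A second Bag2 probe set, at 558, 943 and 743 units in XEN and 116 in ES, rose by 2.56 (adjusted p = 0.0145), while the last was dim on all arrays. Stub1 itself averaged 377 ± 93.8 units in XEN and 529.9 in ES (adjusted p = 0.387).

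The main HSP70 genes did not pass. Hspa8 (HSC70), the constitutive form, read 1933, 3240 and 2887 units in XEN and 4026 in ES (log2 change -0.62 ± 0.35, adjusted p = 0.299). All 3 XEN values were lower than ES, and they ranged widely among themselves. The stress-inducible Hspa1b read 82.6, 61.7 and 100.2 units in XEN and 39.2 in ES, and Hspa1a, its neighbour, 52.4, 42.6 and 34.7 in XEN and 62.1 in ES. Hspa1b was thus higher and Hspa1a lower in each XEN array (adjusted p of 0.162 and 0.411), but the genes are nearly identical in sequence and both signals were low, so how the probes divide them is uncertain. Among the HSP110 exchange factors, Hspa4 averaged 694 ± 151 units in XEN and 1325 in ES (log2 change -0.95, adjusted p = 0.125) and Hsph1 705 ± 126 and 764, overlapping ES. The other Hspa4 probe sets had log2 changes from -1.15 to -0.18, and none passed. Bag3, which directs clients to autophagy, read 171 to 197 units in XEN and 182 in ES, so that it overlapped ES.

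Of 15 tested J-domain proteins outside the endoplasmic reticulum 2 fell (13.3%, against 5.04% of all tested probe sets). None rose (against 5.58%) and 13 did not pass. Dnajc2 (MPP11 or zuotin), which works on the ribosome with the HSP70 relative Hspa14, read 312, 362 and 398 units in XEN, against 1213 in ES. The XEN values clustered at 3.41-fold under ES (log2 change -1.74 ± 0.28, adjusted p = 0.0206), and the gene's second probe set fell by 1.58 (adjusted p = 0.0249). Hspa14 itself averaged 347 ± 68.7 units in XEN and 454 in ES and did not pass (adjusted p = 0.441). Dnajc8, a spliceosome-associated J-domain protein, read 609, 763 and 638 units in XEN and 1827 in ES. It fell by 1.44 ± 0.27 (adjusted p = 0.0312), and its second probe set, 1.11 lower, did not pass (adjusted p = 0.0967).

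Among the 13 that did not pass, differences ran both ways. Dnajb6 averaged 748 ± 102 units in XEN and 1256 in ES (log2 change -0.75, adjusted p = 0.142), and Dnajc7 349 ± 84.3 and 649 (-0.90, adjusted p = 0.153). Dnajb1 (HSP40), induced by heat shock, averaged 232 ± 35.7 units in XEN and 168 in ES (adjusted p = 0.371), and Dnaja1 371 ± 33.7 and 410. Dnajc21 was lower, at 145 ± 22.1 units in XEN and 303 in ES (adjusted p = 0.0843). Dnajb2, a suppressor of aggregation best known in neurons, split the XEN cultures by line, at 187 and 136 units in the IM8A1 cultures (I and II) but 25.5 in XEN1-3, against 36.2 in ES. Without XEN1-3 it passed as higher (log2 change 1.86, adjusted p = 0.0112), which describes the IM8A1 line alone.

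The small heat shock proteins went both ways. Hspb2, best known from heart and skeletal muscle, read 497, 492 and 525 units in XEN, against 180 in ES (log2 change 1.44 ± 0.26, adjusted p = 0.0266), and a second, dimmer probe set rose by 1.83 (adjusted p = 0.0225). The XEN arrays hardly differed among themselves. Its neighbour on chromosome 9, Cryab (alpha B-crystallin), a small heat shock protein outside the name pattern, averaged 115 ± 20.0 units in XEN and 37.2 in ES (log2 change 1.38 ± 0.31, adjusted p = 0.0473). Hspb8 (HSP22), the partner of Bag3 in selective autophagy, went the other way, at 67.0, 78.4 and 66.7 units in XEN and 222 in ES, a log2 change of -1.52 ± 0.27 (adjusted p = 0.0277). Hspb1 (HSP25) was under the limit on all arrays, at 14.3, 2.10 and 16.0 units in XEN and 7.40 in ES, and Hspb11, a component of intraflagellar transport, overlapped ES at 106 ± 21.3 units in XEN and 91.0 in ES.

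None of the 9 TRiC genes passed (in limma, unadjusted p values under 0.05 were found for 0 as higher and 4 as lower, a limit that 15.1% of all tested probe sets met as higher and 14.5% as lower). Their median log2 change was -0.50, and it was -0.61 with median scaling and -0.39 with quantile normalization. Tcp1 and 5 Cct genes were lower than ES in each XEN array (66.7% of the 9, against 34.0% of all tested probe sets). Cct3 read 880, 992 and 1320 units in XEN and 2393 in ES (log2 change -1.18 ± 0.32, adjusted p = 0.0702), and a second Cct3 probe set fell by 1.53 (adjusted p = 0.0322), while the last, 0.44 lower, did not pass (adjusted p = 0.348). Cct4 read 1930, 1472 and 1862 units in XEN and 3372 in ES, and Cct6a 482, 369 and 454 in XEN and 907 in ES (adjusted p of 0.0849 and 0.0726). No XEN array came close to ES for these subunits. Cct7 (1255 ± 97.9 units in XEN and 2247 in ES) and Cct5 (2311 ± 115 and 3270) differed less, and Tcp1 least (197 ± 22.2 and 249.8).

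Not all subunits of the ring were lower. Cct8 read 1136, 1349 and 979 units in XEN and 1082 in ES, so the groups overlapped (log2 change 0.08, and -0.03 with median scaling). Cct2 read 318, 216 and 323 units in XEN and 213 in ES (log2 change 0.38 ± 0.33, adjusted p = 0.489). Cct6b, the testis form of the zeta subunit, was dim and slightly higher, at 35.2, 46.1 and 68.3 units in XEN and 32.8 in ES. Without XEN1-3, Cct3 was lower than ES as well, in a fit that describes the IM8A1 line alone.

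**Figure D3:**
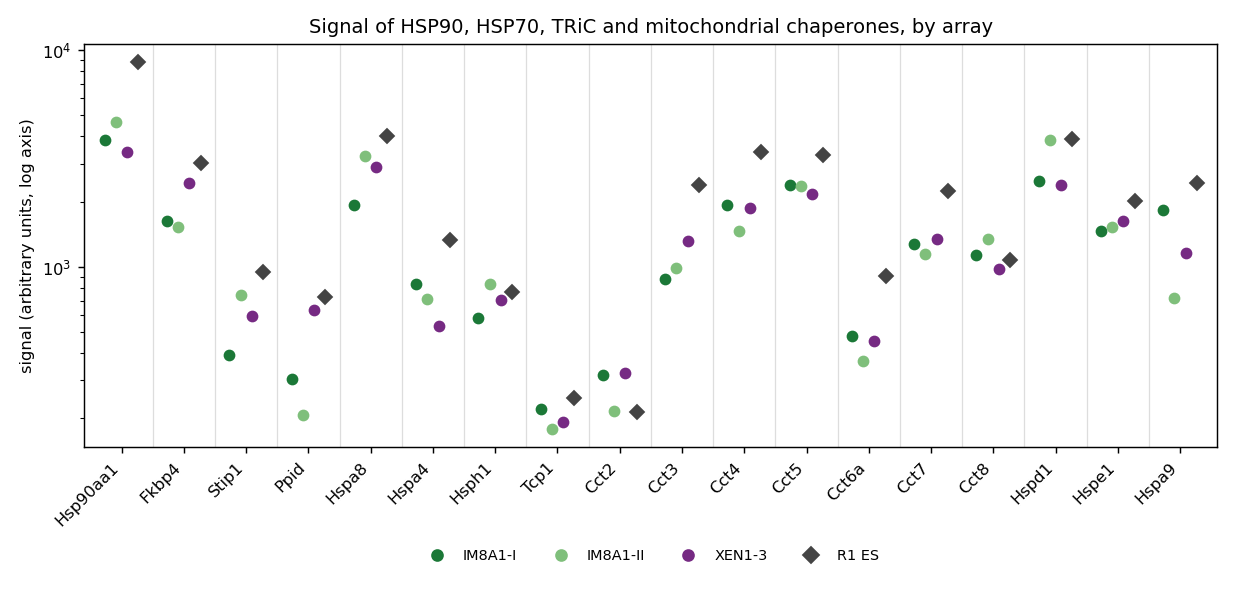
Signal (arbitrary units, log axis) of 18 genes of the HSP90, HSP70, TRiC and mitochondrial machines on each array; circles are the 3 XEN cultures and diamonds the ES culture. For most genes the diamond is on top, as for Hsp90aa1 (3381 to 4659 in XEN and 8788 in ES), while Hsph1, Cct2 and Cct8 overlap or reverse; none of these 18 passed the test.

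The mitochondrial chaperones were also mostly lower in XEN without passing. Of 7 members 0 passed limma's test. At an unadjusted p under 0.05, 1 was lower and none higher, a limit that 14.5% and 15.1% of all tested probe sets met. In each XEN array 6 were lower than ES (85.7%, against 34.0% of all tested probe sets), 5 with quantile normalization. The median log2 change was -0.69. Hspd1 (HSP60) read 2482, 3835 and 2381 units in XEN and 3873 in ES, and IM8A1-II was level with ES (log2 change -0.45 ± 0.35, adjusted p = 0.429). A second, dim Hspd1 probe set, under the limit in XEN and at 51.8 units in ES, had a log2 change of -1.20 (limma adjusted p = 0.0801). Its partner Hspe1 (HSP10) read 1469, 1528 and 1634 units in XEN and 2015 in ES (log2 change -0.38 ± 0.25, adjusted p = 0.348). Hspa9 (mortalin), the HSP70 that pulls proteins into the matrix, was uneven, at 1827, 720 and 1154 units in XEN and 2435 in ES (adjusted p = 0.225). Ppif (cyclophilin D), a regulator of the permeability transition pore, was even and lower, at 151, 141 and 129 units in XEN and 292 in ES (adjusted p = 0.0698). Dnajc15 averaged 65.6 ± 13.4 units in XEN and 111 in ES.

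The remaining prolyl isomerases of cytosol and nucleus had no calls in limma (0 of 6 genes, and 0 at an unadjusted p under 0.05). That unadjusted limit was met by 15.1% of all tested probe sets as higher and 14.5% as lower. Fkbp1a (FKBP12), the target of rapamycin and FK506, averaged 1717 ± 105 units in XEN and 1390 in ES (log2 change 0.30, adjusted p = 0.459). The nuclear Fkbp3 averaged 248 ± 61.7 in XEN and 453 in ES (adjusted p = 0.175), and Fkbp1b 143 ± 54.0 and 173. Among the spliceosomal cyclophilins, Ppie read 49.9, 32.9 and 7.80 units in XEN and 80.2 in ES, with XEN1-3 under the limit (adjusted p = 0.254), and Ppig averaged 51.3 ± 15.4 in XEN and 65.4 in ES. The probe set for Ppia, the abundant cyclophilin A, carries a second gene symbol and is not reported.

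Of the 3 genes that only share the name pattern, Tcp11 read 26.0, 26.2 and 126 units in XEN and 158 in ES, with the IM8A1 cultures under the limit and XEN1-3 near ES (adjusted p = 0.247). Without XEN1-3 its log2 change was -2.20, which describes the IM8A1 line alone. Tcp10b averaged 77.4 ± 10.5 units in XEN and 60.5 in ES, and Tcp1-ps1 lay near the limit on all arrays, at 24.6 ± 4.98 in XEN and 24.7 in ES.

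Other folding genes of the cytosol and mitochondria, from a list of partners outside the name pattern, gave a like picture. Of 33 genes on the array 31 were tested. Cryab rose (3.23%, against 5.58% of all tested probe sets), 0 fell (against 5.04%) and 30 did not pass. At an unadjusted p under 0.05 limma had 1 higher and 12 lower, a limit that 15.1% and 14.5% of all tested probe sets met. All 3 XEN arrays were lower than ES for 18 of the 31 (58.1%, against 34.0% of all tested probe sets). They were higher for 8 (25.8%, against 38.9%), and the median log2 change was -0.37. The changes ran from -1.46 to 1.38, and the call of Cryab was lost in 9 of 13 alternative settings, with adjusted p between 0.0354 and 0.141 over all of them, among them those without IM8A1-I (0.0749) and without IM8A1-II (0.109). Hsf2, a heat shock factor, was under the limit on all arrays.

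Leaving out IM8A1-I lost 8 of the 11 calls and leaving out IM8A1-II lost 6, while leaving out XEN1-3 lost none. Fkbp5, Dnajb11 and Dnajc3 passed under each of the 13 alternative settings. Without IM8A1-I only these 3 passed, and the adjusted p was 0.0598 for Bag2, 0.0662 for Dnajc2, 0.0782 for Hspb8, 0.0804 for Dnajc1, 0.0834 for Hspb2, 0.0954 for Dnajc8, 0.107 for Fkbp9 and 0.108 for Dnajc10. Without IM8A1-II it was 0.0740 for Bag2, 0.0552 for Dnajc2, 0.0614 for Hspb8, 0.0703 for Dnajc1, 0.0725 for Hspb2 and 0.0552 for Dnajc8. Without XEN1-3 both XEN arrays were of the IM8A1 line, so that fit describes this line alone. It gave further calls, for which the share over all probe sets is not given here.

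The XEN cultures were then set against each other, 1 array against 1 array and so without a test. Culture of the IM8A1 line on plastic in RPMI 1640 with FBS (IM8A1-II) left few members 2-fold apart from IM8A1-I, since 1 of 73 was at least 2-fold higher (3.51% of all tested probe sets were) and 1 at least 2-fold lower (2.48%). The lower one was Hspa9, at 720 units in IM8A1-II and 1827 in IM8A1-I, a log2 difference of -1.33, while Fkbpl was near the limit in IM8A1-II (29.2 units) and under it in IM8A1-I (6.80 units). Of the 59 tested cytosolic, nuclear and mitochondrial members, 30 were higher and 29 lower in IM8A1-II, with a median log2 difference of -0.01. By plain signal ratio, Stip1 was 1.89-fold higher (743 against 393 units) and Hspa8 1.68-fold (3240 against 1933). Hspd1 was 1.55-fold higher (3835 against 2482) and Hsph1 1.43-fold (833 against 581), but Hspe1 only 1.04-fold (1528 against 1469). Ratios in the same range were found for Fkbp1b (1.76), Dnajb9 (1.70), Fkbp3 (1.59), Bag2 (1.59) and Dnaja2 (1.53). Other tested members were lower in IM8A1-II, with ratios to IM8A1-I of 0.620 for Dnajc10, 0.653 for Hspbp1, 0.659 for Ppie and 0.671 for Fkbp7. Next were Dnaja3 (0.677), Cct2 (0.678), Ppid (0.683), Hspb11 (0.691) and Hspa14 (0.697). No member of TRiC or of the endoplasmic reticulum was 2-fold apart.

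The XEN1-3 line, in the medium of IM8A1-I, had 3 of 73 members at least 2-fold higher (4.58% of all tested probe sets) and 3 at least 2-fold lower (4.54%), counted like those of IM8A1-II on log2 values with the offset. By plain signal ratio 5 were 2-fold higher, the added ones being the dim Fkbpl (22.8 units in XEN1-3 and 6.80 in IM8A1-I) and Dnajc11 (39.4 and 18.3). Higher were Tcp11 (126 units in XEN1-3 and 26.0 in IM8A1-I), Fkbp7 (133 and 43.4) and Ppid (632 and 304). Lower were Dnajb2 (25.5 units in XEN1-3 and 187 in IM8A1-I), Ppie (7.80 and 49.9) and Ppic (261 and 649). The widest gap was that of Dnajb2, 2.46 in log2. Both comparisons use the IM8A1-I array, and line cannot be told apart from passage or from the fluid message of the XEN1-3 array. Within the 3 XEN arrays the members' range had a median of 0.48 in log2, against 0.51 for all tested probe sets.

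**Figure D4:**
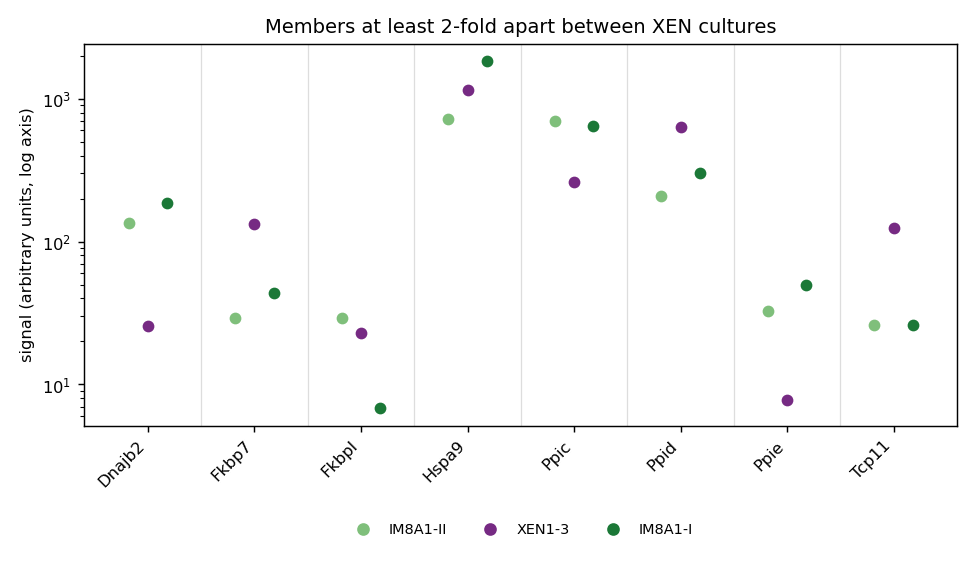
Signal (arbitrary units, log axis) in the 3 XEN cultures of the 8 members at least 2-fold apart from IM8A1-I in either of the other cultures, in the order IM8A1-II, XEN1-3, IM8A1-I. Hspa9 is lowest in IM8A1-II (720 units, against 1827 in IM8A1-I), and Dnajb2 lowest in XEN1-3 (25.5, against 187).

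The promoter windows of the members, 250 bases before to 50 after a RefSeq start, could be read for 67 of the 79 genes. A heat shock element of 3 units (GAA, TTC and GAA or TTC, GAA and TTC, each parted by any 2 bases, on either strand) stood in windows of 4 genes, Hspd1, Hspe1, Hsph1 and Dnajb6, or 5.97% of these 67, against 0.662% of all 27025 genes in the table. Hspd1 and Hspe1 share the run shown in capitals above, and in Dnajb6 the match was GAATCTTCCGGAA. None of the 4 passed the test, with log2 changes of -0.45, -0.38, -0.13 and -0.75. The ER stress element, searched after the values were seen, stood in the window of Dnajc3 and of no other member, or 1 of the 10 endoplasmic reticulum genes with a window, against 0.137% of all genes. Another element of that response, TGACGTGG, stood in none of these 10 and, among all members, in Fkbp1b alone (1.49% of the 67, against 0.714% of all genes). A heat shock element of 2 units (GAANNTTC or TTCNNGAA), which each 3-unit element contains, stood in 26.9% of the 67 and in 17.0% of all genes, with matches in Dnajc10, which rose, and Hspb8, which fell. These matches describe letters in a window and were not tested for binding.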

How the data were processed

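Each array file, as deposited, holds 1 linear intensity for each probe set. How probes were summarised is not stated in the sources at hand. The authors' arrays have equal 2% trimmed means, and rescaling to a common one left them as they were. Per the file headers, the run records name the chip lot and any fluidics message. An offset of 10.5 units (the 25th percentile) was added before log2. Of 12488 probe sets, 8584 had at least 1 array at the background limit of 27.2 units (the 40th percentile) and were tested, and 66 control probe sets were left out. The test was limma 3.58.1 (R 4.3.3; lmFit and eBayes with trend, 2 residual and 3.76 prior degrees of freedom; two-sided), Benjamini-Hochberg adjusted over all of these, with a threshold of 0.05. The script was checked on simulated data. Folds by the geometric mean leave out the offset; "at least" sets the geometric mean of XEN over the limit. IM8A1-I and IM8A1-II are cultures of 1 line, so the 3 XEN arrays stand for 2 lines. The labels do not say that the cultures are independent. The p-values rest on the spread between these cultures and on the prior variance that limma takes from all tested probe sets.

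Symbols came from the platform annotation; all 79 members matched the RefSeq table of GRCm38.p6 by gene ID, and 6 matching probe sets were not used because they carry several symbols. Probe sets whose names do not end in a plain _at can share probes with related transcripts. Among them are those read for Bag2, Dnajc3, Dnajc8, Hspb2, Cct3 and Cct6a. Members, lists and the naming rule were chosen with earlier results of these data known. Named were members past the threshold, the brightest and up to 3 with the smallest p of each role list, members at least 2-fold apart within XEN, and fixed names such as TRiC subunits; others were added, after their values were seen, to complete a list. Alternatives changed the offset, filter, scaling, variance model, probe set choice and XEN arrays.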

Additional observations from a re-analysis of the deposited data

How the results depend on the processing

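The 7 rises and 4 falls were also found, gene by gene, under quantile normalization, with offsets at the 5th or 50th percentile and with the 60th percentile filter, and that filter added 1 fall (Hsp90aa1). The count of rises was 4 without a filter, 4 with values raised to the background limit and 4 with each XEN line counted once, and the count of falls was 2 with the mean over all probe sets of a gene. Leaving out 1 XEN culture at a time gave 2 to 11 rises and 1 to 7 falls, the lowest without IM8A1-I and the highest without XEN1-3; these fits take the spread of the lone ES culture from XEN. Rises of endoplasmic reticulum members numbered 2 to 8 over all settings, with 0 falls. The median log2 change of the 79 genes stayed negative, from -0.25 with median scaling to -0.11 with the 50th percentile as offset. Members at least 2-fold higher in XEN1-3 than in IM8A1-I numbered 5 when the offset was the 5th percentile and 1 when it was the 50th. The 1 member 2-fold higher in IM8A1-II, Fkbpl, gave way to 0 members with the 50th percentile as offset, with the 60th percentile filter and with values raised to the limit.

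Small differences that did not pass changed sign. With median scaling Bag3 stood at -0.066 and Cct8 at -0.025, with the mean over probe sets Bag3 at -0.084, and with values raised to the limit Fkbpl at 0.034 and Tcp1-ps1 at 0.047. Leaving out 1 XEN culture at a time gave -0.0016 to 0.095 for Bag3, -0.037 to 0.19 for Cct8, -0.52 to 0.084 for Fkbpl, -0.018 to 0.52 for Hspb1, -0.26 to 0.00010 for Hsph1 and -0.12 to 0.078 for Tcp1-ps1. The J-domain median was 0.00 with values raised to the limit, where Hspb1 and Hsf2 give no value. The cause of these shifts was not tested. No paired analysis was possible because the ES group has 1 culture and its number pairs it with no XEN culture.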
